A study of Mus musculus with 6 samples.

Results

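The genes described here are 52 genes of DNA replication and S phase, among the 26187 genes measured by RNA-Seq in mouse MC3T3-E1 cells. They were found by gene symbol, each symbol matched 1 gene, and all 52 passed the filter on low values. They fall into 7 roles: origin licensing, helicase activation, DNA polymerases and primase, the sliding clamp with its loader and the factors that protect and join new strands, nucleotide supply, E2F factors with cyclin E, and chromatin with histone mRNA. MC3T3-E1 is an established line of pre-osteoblasts from mouse calvaria, and all libraries came from this 1 line. In the PAKG group, 3 samples were cultured for 2 days in osteoconductive (OC) medium that held 30 μg/mL of PAKG–8diol–PEG(S) MPs. These are small microparticles of a polyester of α-ketoglutarate, a metabolite of the tricarboxylic acid cycle, with an aliphatic diol and polyethylene glycol. In the OC group, 3 samples were cultured in the same medium without MPs. The OC group received no particles of any kind, so the presence of particles and the polymer they are made of cannot be told apart in this comparison. The study describes its cell experiments as triplicate wells per group, but which wells or repeats gave the RNA is not stated, so p-values rest on the spread between samples that may be wells of 1 experiment.

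In every S phase the genome is copied once. Before it, in G1, the origin recognition complex, Cdc6 and Cdt1 load the MCM2-7 helicase onto origins. Cdc45, the GINS complex and Mcm10 then help to activate it, and primase, DNA polymerases, the Pcna clamp, its loader RFC and the single-strand binding protein RPA build the new strands. Many of these genes are transcribed under E2F factors at the transition from G1 to S, so their mRNA is widely used as a sign of proliferation. Pre-osteoblasts divide before they mature, and proliferation declines as osteoblasts differentiate.

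E2F factors bind short GC-rich elements next to the start sites of their targets. RefSeq promoter windows (GRCm38.p6, from 250 bases before to 50 bases after the start site) were matched by symbol for 44 of the 52 genes, with 53 windows in all. Ccne2, Gins1, Gins2, Gins4, Mcm4, Pole, Prim2 and Rfc2 were not matched. The windows were searched on both strands for 4 E2F words, TTTCCCGC, TTTGGCGC, TTTCGCGC and TTTGCCGC, and for CCAAT. The windows of the 4 genes with the smallest adjusted p among those holding an E2F word are shown. Rrm2 and Rrm1, which had the smallest adjusted p of all 52 genes, held no E2F word in their windows. Each is written 5′ to 3′ on the strand of its gene, with the E2F words in capitals. They lie at chr8:75109259-75109558 (plus strand) for Mcm5, chr7:13278576-13278875 (plus strand) for Lig1, chr1:20820263-20820562 (minus strand) for Mcm3 and chr1:128359656-128359955 (minus strand) for Mcm6.
Mcm5: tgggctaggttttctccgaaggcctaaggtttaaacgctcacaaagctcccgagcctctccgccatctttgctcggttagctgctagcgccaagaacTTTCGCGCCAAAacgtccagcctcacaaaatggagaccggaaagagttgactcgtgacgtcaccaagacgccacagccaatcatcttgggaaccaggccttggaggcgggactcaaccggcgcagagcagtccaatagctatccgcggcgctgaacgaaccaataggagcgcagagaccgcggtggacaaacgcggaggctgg
Lig1: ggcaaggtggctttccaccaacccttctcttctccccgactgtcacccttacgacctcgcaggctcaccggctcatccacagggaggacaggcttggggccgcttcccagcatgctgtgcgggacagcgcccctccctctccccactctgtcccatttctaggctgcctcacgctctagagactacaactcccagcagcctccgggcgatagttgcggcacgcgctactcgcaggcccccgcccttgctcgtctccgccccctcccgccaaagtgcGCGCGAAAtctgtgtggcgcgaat
Mcm3: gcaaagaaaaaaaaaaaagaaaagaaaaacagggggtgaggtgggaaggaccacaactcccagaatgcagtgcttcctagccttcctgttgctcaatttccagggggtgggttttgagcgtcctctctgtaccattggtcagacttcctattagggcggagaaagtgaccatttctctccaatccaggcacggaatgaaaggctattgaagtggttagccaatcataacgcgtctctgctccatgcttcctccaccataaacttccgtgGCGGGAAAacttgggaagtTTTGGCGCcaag
Mcm6: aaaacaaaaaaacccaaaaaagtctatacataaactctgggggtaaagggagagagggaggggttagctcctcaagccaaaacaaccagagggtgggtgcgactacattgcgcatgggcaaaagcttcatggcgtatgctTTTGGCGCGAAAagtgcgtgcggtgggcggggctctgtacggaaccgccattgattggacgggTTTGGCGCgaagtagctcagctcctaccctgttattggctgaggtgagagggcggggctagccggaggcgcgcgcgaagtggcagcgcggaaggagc
In Mcm5 the capitals hold 2 words on opposite strands that overlap each other. The Mcm6 window holds such an overlapping pair and a further word closer to the start. The words of Mcm3 and Lig1 lie after the start site, and the Lig1 start site used by RefSeq lies inside the annotated gene, downstream of its outermost start.

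At least 1 E2F word was present in 18 of the 53 windows (34.0%), each in a different gene, against 744 of all 32851 RefSeq windows (2.26%). The genes were Cdc6, Cdt1, Dnmt1, E2f2, E2f7, Gins3, Lig1, Mcm3, Mcm5, Mcm6, Mcm7, Orc1, Pola1, Pold1, Pold3, Pole2, Rfc3 and Uhrf1. TTTCCCGC, TTTGGCGC and TTTCGCGC were each found in 8 windows, and TTTGCCGC was found in 0. Of the 25 matches, 15 had their centre within 100 bases of the start site and 11 lay after it, and 6 genes held 2 or more matches. CCAAT was present in 32 of the 53 windows (60.4%) and in 37.4% of all windows, and 1 E2F match overlapped a CCAAT match. These shares describe the letters in the windows and not binding, and base composition was not matched between the sets.

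**Figure D1:**
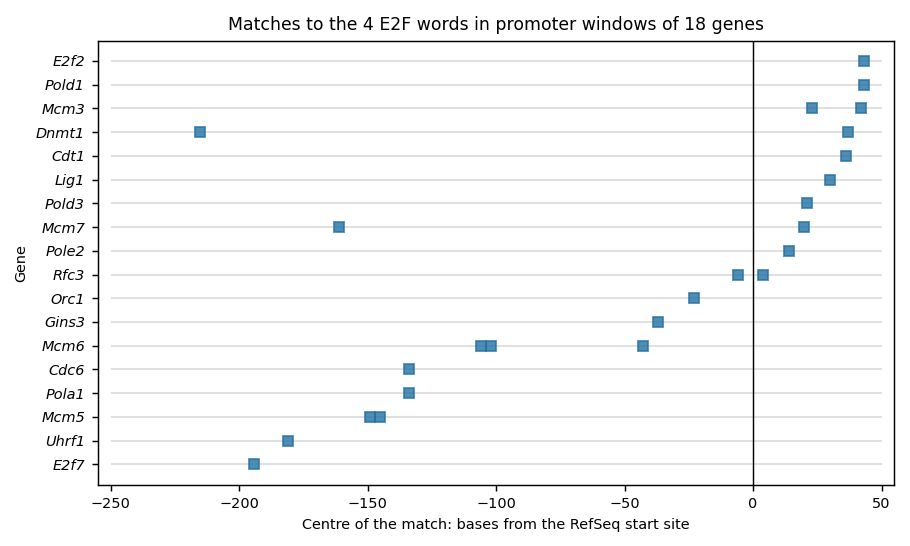
Centres of the 25 matches to the 4 E2F words in the promoter windows of 18 genes, in bases from the RefSeq start site (vertical line at 0). The matches spread over the window from before to after the start, with 15 of 25 within 100 bases of it.

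The libraries were compared as deposited FPKM (fragments per kilobase of transcript, scaled to the number of mapped fragments), which account for length, so levels of different genes can be set side by side. FPKM summed to between 289675.86 and 325818.25 per library. From the low values of short genes, the depth was roughly estimated at 32000000 to 43500000 fragments per library. On this estimate the lowest of the 52 genes, E2f2, rested on about 104 fragments in the library with the fewest. That value takes the length of its longest coding transcript, and shorter transcripts would give fewer. Replicate 2 of both groups stood apart from the other libraries in relation to transcript length, as described below, and counts are therefore also given without both of them. All 9 osteoblast markers were detected, 7 of them were higher in PAKG by the test below and 1, Spp1, was lower, and Col1a2 was also higher with the replicate block (limma adjusted p = 0.0531 without and 0.0069 with it). The files list 3 of 6 blood, 2 of 4 endothelial, 6 of 6 epithelial and 4 of 4 adipocyte markers, and none of those listed exceeded 0.69 FPKM in any library, and the summed level of a list was at most 0.98 FPKM in all cases but 1, the adipocyte list at 1.25 FPKM in OC replicate 3 (0.06 FPKM or less in the other libraries). Mitochondrial genes took 9.531 to 10.71% of FPKM in PAKG and 10.84 to 11.88% in OC, and Col1a1 with Col1a2 took 2.11 to 2.526% in PAKG and 1.387 to 1.882% in OC. The part of these differences in the results below was not tested.

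Replication genes were lower with PAKG MPs in every role. Summed over the 52 genes, the level was 905, 844 and 897 FPKM in PAKG replicates 1 to 3 and 1306, 1240 and 1255 FPKM in OC replicates 1 to 3. The groups did not overlap, and the mean sum was 30.4% lower in PAKG (882 ± 33.2 against 1267 ± 34.8 FPKM, mean ± SD, n = 3). As a share of all FPKM of the library, the 52 genes took 0.2914 to 0.2915% in PAKG and 0.3851 to 0.419% in OC. By gene, the mean FPKM was lower in PAKG by 10.7 to 46.6%, with a median of 32.4%. In bulk RNA, fewer cells in S phase and less of these mRNAs per cell cannot be told apart.

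The test was limma's on log2(FPKM + 0.1) across 12590 genes, those whose mean reached 0.5 FPKM, 2-sided, with Benjamini-Hochberg adjustment over these genes, and "lower" or "fell" means an adjusted p under 0.05. Of the 52 genes, 43 were lower in PAKG and 0 were higher, whereas 8.73% of all genes tested were lower and 5.97% higher. At an unadjusted p under 0.05, 49 of the 52 were lower and 0 higher, beside 2119 lower and 1511 higher of all 12590 genes tested. The median log2 fold change was -0.56 for the 52 genes and -0.03 for all genes tested. All 52 had a log2 fold change below 0, as did 55.5% of all genes, and 42 of the 52 lay in the lowest 10% of all log2 fold changes. In 48 of the 52 genes every PAKG value was below every OC value, which held for 19.6% of all genes. The exceptions were Gins2, Gins4, Rfc2 and Rpa3. The changes were moderate, with log2 fold changes from -0.89 (E2f8) to -0.17 (Rpa1). In limma, 0 of the 52 genes reached the study's thresholds for differential expression (adjusted p under 0.05 with a fold of at least 2). At an unadjusted p, 0 did so, whereas 1.45% of all genes reached the thresholds with the adjusted p. The study applied its thresholds to DESeq2, which was not run here, so its calls can differ from these. Because of the added 0.1, the fold change of a gene at low FPKM is understated. With the replicate number as a block, 51 of the 52 were lower (17.1% of all genes), with Rpa3 as the exception. Without both replicates numbered 2, 46 of the 52 were lower (12.3% of all genes). After rescaling each library to a common total, 40 of the 52 were lower and 0 higher, beside 6.07% and 6.94% of all genes.

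**Figure D2:**
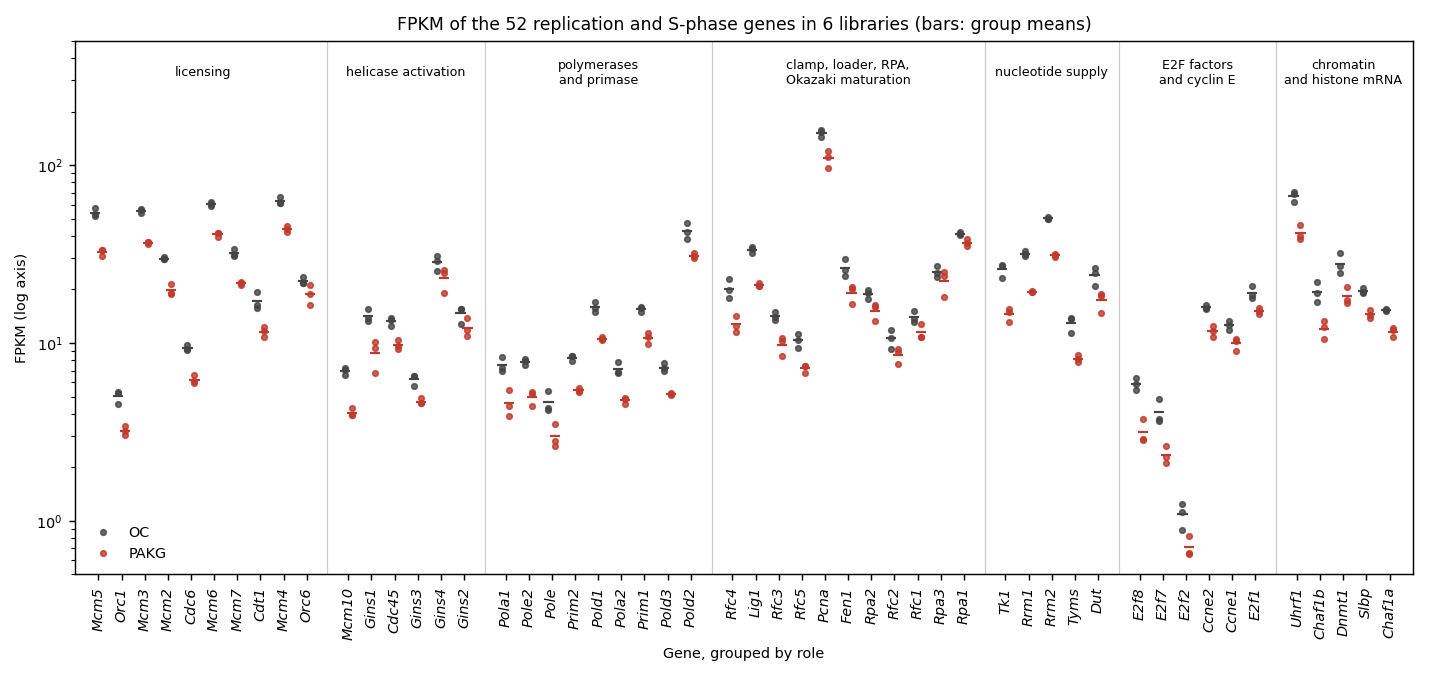
FPKM on a log axis of each of the 52 genes in the 3 OC (grey) and 3 PAKG (red) libraries, with bars at the group means and genes grouped by role. In 48 genes all PAKG points lie below all OC points, and Pcna (96.3 to 158 FPKM) is the highest and E2f2 (0.65 to 1.25 FPKM) the lowest.

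**Figure D3:**
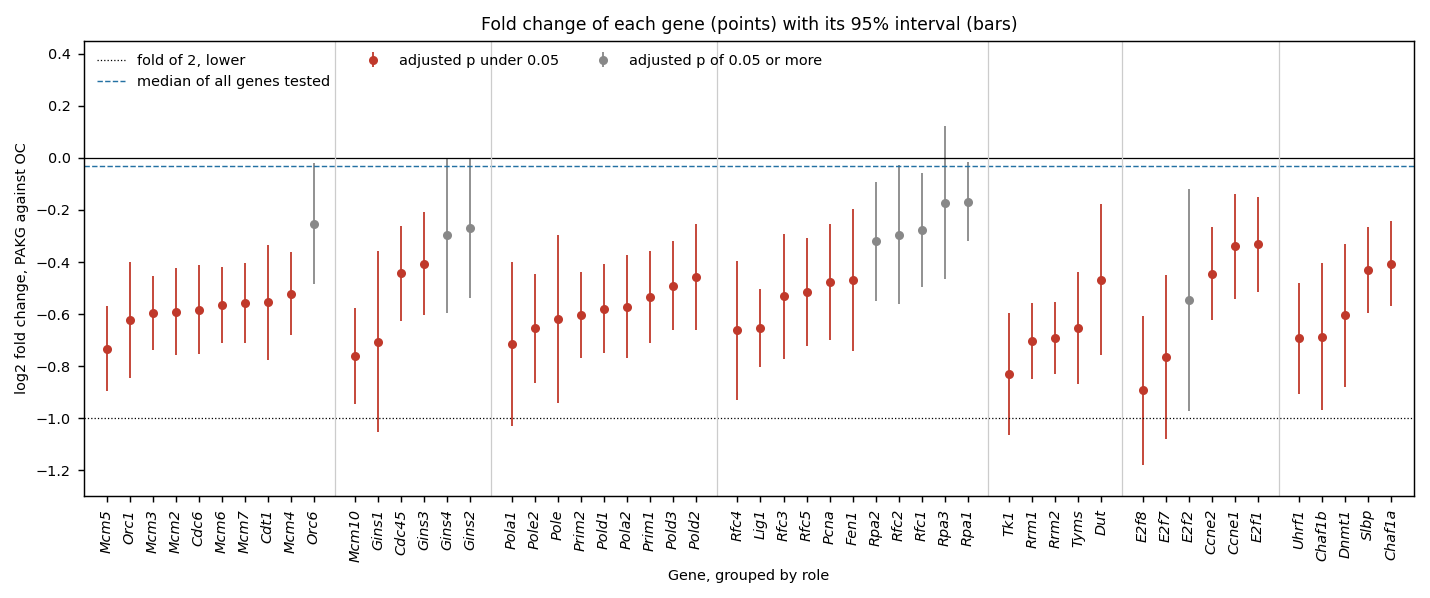
Log2 fold change of PAKG against OC for each of the 52 genes on the log2(FPKM + 0.1) scale, with limma's 95% interval, not adjusted for the number of genes, as bars. Red points are the 43 genes with an adjusted p under 0.05, grey points the other 9, the dashed line is the median of all genes tested (-0.03), and no point reaches the dotted line of a fold of 2.

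Licensing genes fell together, with 9 of 10 lower (median log2 fold change -0.57). All 6 subunits of the MCM2-7 ring, the core of the replicative helicase, were lower, by -0.73 to -0.52. Mcm5 (ENSMUSG00000005410, chromosome 8, 75109569 to 75128439 on GRCm38, as are all coordinates of genes here) was at 31.0, 33.2 and 33.2 FPKM in PAKG and at 57.2, 53.3 and 51.6 FPKM in OC. The OC libraries were thus all above the PAKG libraries by a wide margin, and the log2 fold change was -0.73 with a standard error (SE, from limma) of 0.07 (adjusted p = 0.000849). Mcm3 (chromosome 1, 20802968 to 20820312) had 37.1, 36.2 and 36.8 FPKM in PAKG against 56.9, 56.0 and 53.7 in OC, a log2 fold change of -0.60 with an SE of 0.06 (adjusted p = 0.00109). Mcm6 (chromosome 1, 128331590 to 128359664), one of the 4 genes with the highest levels in the set, had 41.6, 39.4 and 41.6 FPKM in PAKG against 62.1, 60.4 and 58.9 in OC. Its groups were also far apart, with a log2 fold change of -0.56 with an SE of 0.06 (adjusted p = 0.00148). Mcm4 (chromosome 16, 15623897 to 15637400), the most abundant ring subunit, had 42.1, 45.7 and 43.5 FPKM in PAKG against 61.2, 66.2 and 61.1 in OC (log2 fold change -0.52 with an SE of 0.07, adjusted p = 0.00291). Mcm2 and Mcm7, the other subunits, fell by 0.59 and 0.56 on the log2 scale. The loading factors Cdc6 and Cdt1 and the origin recognition subunit Orc1 fell by 0.58, 0.55 and 0.62. Orc6, the smallest subunit of the origin recognition complex, was the exception in this role. It had 21.1, 16.4 and 18.9 FPKM in PAKG against 23.6, 21.7 and 21.8 in OC, groups that lie close without overlap (log2 fold change -0.25, adjusted p = 0.142), and it was called with the replicate block (adjusted p = 0.0304).

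Among the genes that activate the loaded helicase, 4 of 6 were lower (median -0.42). Mcm10 (chromosome 2, 4989714 to 5012791), which binds the helicase as it starts to unwind DNA, was at 3.95, 4.30 and 3.93 FPKM in PAKG and 7.07, 7.20 and 6.58 FPKM in OC. It had the largest fall of the role, with a log2 fold change of -0.76 with an SE of 0.08 (limma adjusted p = 0.00114). Cdc45 (chromosome 16, 18780447 to 18811987), which joins MCM2-7 and GINS in the active helicase, had 10.4, 9.23 and 9.58 FPKM in PAKG against 13.5, 12.5 and 13.9 in OC (log2 fold change -0.44 with an SE of 0.08, adjusted p = 0.00984). Leaving out PAKG replicate 3 (adjusted p = 0.0553) or OC replicate 3 (0.0541) ended its call. The 4 GINS subunits, which form 1 complex, did not give 1 result: Gins1 and Gins3 were lower, while Gins2 and Gins4 had overlapping groups. Gins3 (chromosome 8, 95633453 to 95645060) had 4.91, 4.57 and 4.58 FPKM in PAKG against 6.54, 6.50 and 5.71 in OC (log2 fold change -0.41 with an SE of 0.08, adjusted p = 0.0192), and it was not called without PAKG replicate 3 (0.0906), OC replicate 1 (0.0732) or OC replicate 2 (0.0559) or after rescaling to a common total (0.064). Gins1 fell by 0.71 on the log2 scale (adjusted p = 0.0199), with its lowest value, 6.79 FPKM, in PAKG replicate 2, and was not called without OC replicate 1 (0.051) or OC replicate 3 (0.0865) or with no filter (0.052). Gins4 had 25.9, 19.1 and 24.7 FPKM in PAKG against 30.8, 25.5 and 28.7 in OC, and Gins2 had 11.8, 10.9 and 13.8 against 15.6, 12.8 and 15.6. In both the lowest value of each group was that of replicate 2. Both had an adjusted p of 0.174 in limma, and with the replicate block 0.0141 for Gins4 and 0.0254 for Gins2. Gins4 was also called without both replicates numbered 2 (0.0489).

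All 9 genes of the DNA polymerases and primase in the set were lower (median -0.58). Pold4, Pole3 and Pole4 are outside the set and are given below. These were the 4 subunits of polymerase α-primase, which starts each new strand (-0.72 to -0.54), 3 of polymerase δ, which copies mainly the lagging strand (-0.58 to -0.46), and 2 of polymerase ε, which copies mainly the leading strand (-0.66 and -0.62). The large primase subunit Prim2 (chromosome 1, 33453810 to 33669795) had 5.35, 5.29 and 5.60 FPKM in PAKG against 8.40, 7.94 and 8.48 in OC, a log2 fold change of -0.60 with an SE of 0.07 (limma adjusted p = 0.00174). Pold1 (chromosome 7, 44532746 to 44548849), the catalytic subunit of polymerase δ, had 10.8, 10.5 and 10.4 FPKM in PAKG against 17.0, 15.8 and 14.9 in OC, a log2 fold change of -0.58 with an SE of 0.07 (adjusted p = 0.00235). Pole2 (chromosome 12, 69201773 to 69228195), a regulatory subunit of polymerase ε, had 5.28, 4.44 and 5.18 FPKM in PAKG against 7.92, 7.52 and 8.14 in OC, a log2 fold change of -0.66 with an SE of 0.09 (adjusted p = 0.0034). In these 3 genes, as in the other 6 of the role, the groups did not overlap. The widest fall was that of Pola1, at -0.72, and the narrowest that of Pold2, at -0.46. The calls of 3 genes depended on single libraries: Pola1 was not called without PAKG replicate 3 (adjusted p = 0.054), nor Pold2 without OC replicate 3 (0.0597). Pole, the catalytic subunit of polymerase ε, was lost without any library other than PAKG replicate 2 (0.0564 to 0.0961), with no filter (0.0639) and after rescaling to a common total (0.0666).

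The clamp, its loader, RPA and the enzymes that finish Okazaki fragments, the short pieces of the lagging strand, gave a mixed result, with 6 of 11 lower (median -0.47). Pcna (chromosome 2, 132249162 to 132253314), the sliding clamp that holds the polymerases on DNA, had the highest level of the set, at 120.0, 96.3 and 111 FPKM in PAKG and 153, 143 and 158 FPKM in OC. The lowest OC library was above the highest PAKG library, with a log2 fold change of -0.48 with an SE of 0.10 (limma adjusted p = 0.0162). Leaving out PAKG replicate 3 ended the call (adjusted p = 0.0636), as did leaving out OC replicate 1 (0.0598) or 3 (0.076), and the pseudogene Pcna-ps2, a near copy, was listed at a mean of 3.74 FPKM. Lig1 (chromosome 7, 13277283 to 13311433), the ligase that seals Okazaki fragments, had 20.9, 21.0 and 21.8 FPKM in PAKG against 34.6, 33.7 and 32.0 in OC, a log2 fold change of -0.65 with an SE of 0.06 (adjusted p = 0.000958). Fen1, the nuclease that trims their flaps, fell by 0.47 on the log2 scale (adjusted p = 0.0354). It was called without PAKG replicate 2, whereas leaving out any other library ended the call (0.0531 to 0.107), as did no filter (0.0787), no mean-variance trend (0.0583) and leaving out both replicates numbered 2 (0.0565).

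RFC, the loader that opens the Pcna ring, has 5 subunits, of which 3 were lower. Rfc4 (chromosome 16, 23113943 to 23127737) had 14.1, 11.5 and 12.5 FPKM in PAKG against 23.0, 17.9 and 19.8 in OC, a log2 fold change of -0.66 with an SE of 0.11 (limma adjusted p = 0.009). Rfc5 (chromosome 5, 117378103 to 117389047) had 7.40, 6.75 and 7.45 FPKM in PAKG against 11.2, 9.41 and 10.4 in OC, a log2 fold change of -0.51 with an SE of 0.09 (adjusted p = 0.00895). In both, replicate 2 was the lowest library of its group. Rfc3 fell by 0.53, a call lost without OC replicate 3 (adjusted p = 0.0687). Rfc1, the large subunit, and Rfc2 had log2 fold changes of -0.28 and -0.29 (adjusted p = 0.0958 and 0.137), and both were called with the replicate block (0.0106 and 0.00985). Both were also called without both replicates numbered 2 (0.0199 and 0.0382), and Rfc1 without PAKG replicate 2 alone (0.027).

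RPA coats single-stranded DNA in replication and also in repair, and its 3 genes had the smallest median log2 fold change of the complexes counted here (-0.17), with 0 of 3 called (2 of 3 at an unadjusted p under 0.05). Rpa1 had 38.3, 35.0 and 36.3 FPKM in PAKG against 41.9, 40.9 and 40.2 in OC, close groups without overlap (log2 fold change -0.17, 95% interval -0.32 to -0.02, limma adjusted p = 0.135). Rpa2 had 16.0, 13.2 and 16.3 FPKM against 19.9, 17.7 and 19.1 (log2 fold change -0.32, 95% interval -0.55 to -0.09, adjusted p = 0.07). Rpa3 had 23.8, 18.2 and 24.98 FPKM against 24.6, 23.4 and 27.0, with groups that overlapped (log2 fold change -0.17, 95% interval -0.47 to 0.12, adjusted p = 0.422). With the replicate block, Rpa1 (adjusted p = 0.0392) and Rpa2 (0.0106) were called and Rpa3 (0.122) was not. Rpa2 was also called without both replicates numbered 2 (0.0255). Whether the RPA genes differ from the rest of the set was not tested.

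All 5 genes of nucleotide supply were lower, with the largest median fall of the 7 roles (-0.69). Rrm1 (chromosome 7, 102441695 to 102469771) and Rrm2 (chromosome 12, 24708241 to 24714146) are the large and small subunits of ribonucleotide reductase, which makes deoxyribonucleotides. Rrm2 had 30.6, 31.1 and 31.7 FPKM in PAKG against 49.9, 51.1 and 49.9 in OC, a log2 fold change of -0.69 with an SE of 0.06 (limma adjusted p = 0.000579, the smallest of the set). Rrm1 had 19.4, 19.3 and 19.7 FPKM in PAKG against 32.9, 30.7 and 31.5 in OC, a log2 fold change of -0.70 with an SE of 0.06 (adjusted p = 0.000657). Libraries of 1 group hardly differed in these genes, and the means of the groups differed by 38.1% for Rrm2 and 38.7% for Rrm1. Tk1 (chromosome 11, 117815526 to 117826092), the thymidine kinase of the salvage pathway, had 15.5, 13.0 and 15.0 FPKM in PAKG against 27.5, 23.1 and 27.1 in OC. Only E2f8 fell further among the 52 genes, and Tk1 had a log2 fold change of -0.83 with an SE of 0.10 (adjusted p = 0.00199). Tyms, which makes thymidylate, fell by 0.65 on the log2 scale. Dut, which removes dUTP, fell by 0.47 (adjusted p = 0.0443), but it was called without OC replicate 2 and in no other fit that left out 1 library (0.0561 to 0.158), and not with no filter (0.0971) or no mean-variance trend (0.0698).

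Of the E2F factors and E-type cyclins, 5 of 6 were lower (median -0.50). E2f7 and E2f8 are atypical E2F factors that repress E2F targets late in S phase and are themselves E2F targets. E2f8 (chromosome 7, 48866429 to 48881596) had 2.88, 3.72 and 2.85 FPKM in PAKG against 5.86, 6.39 and 5.46 in OC, the largest fall of the 52 genes (log2 fold change -0.89 with an SE of 0.12, limma adjusted p = 0.00345). Without PAKG replicate 2, the highest PAKG library for this gene, the log2 fold change was -1.01, and E2f8 then met both thresholds for differential expression. E2f7 (chromosome 10, 110745439 to 110787384) had 2.30, 2.63 and 2.12 FPKM in PAKG against 3.76, 4.82 and 3.65 in OC, a log2 fold change of -0.76 with an SE of 0.14 (adjusted p = 0.00997). The activator E2f1 and the cyclin E gene Ccne1, both of which act at entry into S phase, fell by 0.33 and 0.34 (adjusted p = 0.03 and 0.0395). Both calls depended on single libraries. Ccne1 was lost in each of the 6 fits that left out 1 library (0.0507 to 0.127), and E2f1 without any library but replicate 2 of either group (0.0883 to 0.0958). Both were also lost with no filter (0.0726 for Ccne1, 0.0517 for E2f1) and with no mean-variance trend (0.0613 and 0.0511), and E2f1 after rescaling to a common total (0.0604). The other cyclin E gene, Ccne2 (chromosome 4, 11191351 to 11204779), had 12.5, 10.8 and 11.7 FPKM in PAKG against 15.5, 16.3 and 15.8 in OC, a log2 fold change of -0.44 with an SE of 0.08 (adjusted p = 0.0088). The activator E2f2, the least abundant gene of the set, had 0.65, 0.82 and 0.66 FPKM in PAKG against 1.12, 1.25 and 0.89 in OC. Its groups did not overlap but it was not called (log2 fold change -0.55, adjusted p = 0.0923), except with the replicate block (0.0427).

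All 5 genes that restore chromatin behind the fork or handle histone mRNA were lower (median -0.61). Uhrf1 (chromosome 17, 56303321 to 56323486), which reads hemimethylated DNA and recruits the maintenance methyltransferase, had 38.6, 46.0 and 39.9 FPKM in PAKG against 68.5, 71.0 and 61.7 in OC. Its groups were far apart, with a log2 fold change of -0.69 with an SE of 0.09 (limma adjusted p = 0.003). Dnmt1, that methyltransferase, fell by 0.61 on the log2 scale, a call lost without PAKG replicate 1 (adjusted p = 0.0517) or PAKG replicate 3 (0.0643). Chaf1a (chromosome 17, 56040439 to 56072289) and Chaf1b encode subunits of CAF-1, which deposits histones on new DNA. Chaf1a had 12.1, 10.8 and 11.8 FPKM in PAKG against 15.3, 15.2 and 15.5 in OC, a log2 fold change of -0.41 with an SE of 0.07 (adjusted p = 0.00896), and Chaf1b fell by 0.69. Slbp (chromosome 5, 33634952 to 33652574), which binds the stem-loop at the end of replication-dependent histone mRNA, had 14.4, 13.8 and 15.4 FPKM in PAKG against 19.1, 19.3 and 20.4 in OC, a log2 fold change of -0.43 with an SE of 0.07 (adjusted p = 0.00736). All 5 had groups that did not overlap.

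Of the 43 genes called, 30 were called in each of 15 other fits, namely other pseudocounts, filters, scalings and trend, the block, both replicates numbered 2 left out, and each library left out in turn. The other 13, each named above, were lost in at least 1 of the 6 fits that left out a single library. Against a fold of 1.2 instead of 0 (limma treat), 17 of the 52 were lower, which were Cdc6, Mcm2, Mcm3, Mcm5, Mcm6, Mcm7, Mcm10, Pold1, Pole2, Prim2, Lig1, Rrm1, Rrm2, Tyms, Tk1, E2f8 and Uhrf1, beside 2.1% of all genes. Some genes overlap expressed genes on the opposite strand. Among them are Rfc4 (Eif4a2, 194 bases), Mcm7 (Cops6, 64 bases), Ccne2 (Ints8, 5622 bases), Chaf1a (Ubxn6, 5245 bases) and Gins2 (Gse1, 2758 bases). Gins2 also overlaps the annotated gene Gm20388 (10672 bases) on the opposite strand, for which no level is listed. The library kit keeps strand, but whether it was used in the quantification is not given in the sources used here. On the same strand, Cdt1 overlaps Gm20388 and Pole2 overlaps Gm49384, which also has no listed level. The values of Cdt1 and Pole2 may therefore hold shared reads.

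Members with and without an E2F word in the window were both mostly lower. Of the 18 genes with a word, 17 were lower (median log2 fold change -0.59, from -0.76 to -0.41), with E2f2 as the exception. Of the 26 matched genes without one, 21 were lower (median -0.47, from -0.89 to -0.17), among them E2f8, Tk1 and Mcm10, whose falls were among the largest of the set. The 2 sets overlapped widely, and the difference between them was not tested.

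Replicate 2 differed from the other libraries of its group by transcript length. Across the 52 genes, which are not independent replicates, the deviation of replicate 2 from its group mean rose with the log2 length of the longest coding transcript, with Pearson's r of 0.75 in PAKG and 0.588 in OC (Spearman's rho 0.725 and 0.579). Over the 10721 tested genes with a coding transcript, r was 0.58 and 0.555, so the pattern was not limited to replication genes. Short transcripts such as Rpa3 (670 bases) and Rfc4 (1279 bases) were lower in replicate 2 of both groups, and long ones such as E2f2 (4739 bases) and Rfc1 (4751 bases) were higher. Some long transcripts went the other way, among them Gins2 (3900 bases) and Rfc2 (4995 bases), which were lower in replicate 2 of both groups. The deviations of replicate 2 in PAKG and in OC correlated across the 52 genes at r = 0.769. The log2 fold change between the groups had r = -0.176 with log2 length and r = 0.178 with log2 mean FPKM across the same genes.

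**Figure D4:**
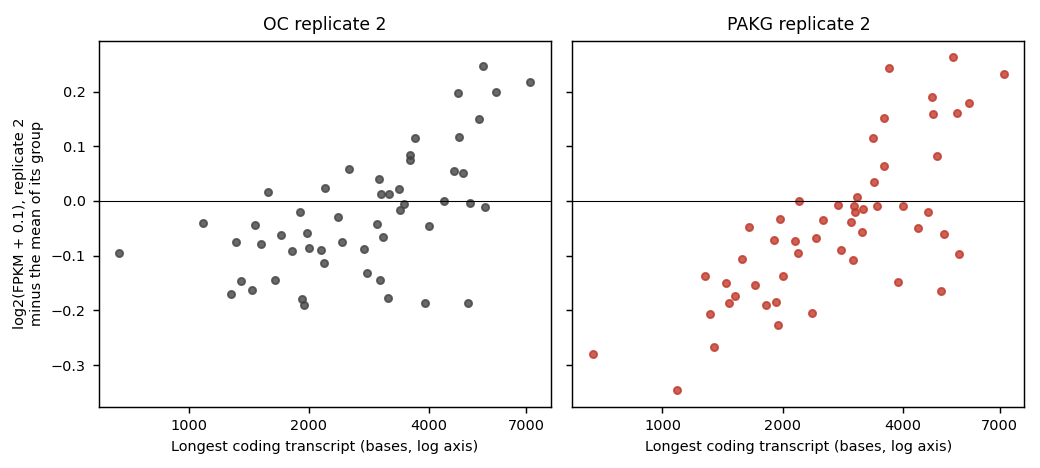
Deviation of replicate 2 from its group mean, in log2(FPKM + 0.1), against the length of the longest coding transcript in bases (log axis), for the 52 genes in OC (left) and PAKG (right). Most of the shorter transcripts lie below 0 and longer ones more often above it in both groups (r = 0.588 and 0.75).

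Further lists of the cell cycle were read from the same fit, so they share all 6 libraries with the 52 genes. Over all genes tested, 8.73% were lower and 5.97% higher, and with the replicate block 17.1% were lower. Of 44 other replication genes, 23 were lower and 0 higher (33 lower with the replicate block), with a median log2 fold change of -0.40. Pclaf, a Pcna-binding factor, had 16.9, 16.0 and 16.8 FPKM in PAKG against 29.0, 28.5 and 30.4 in OC (log2 fold change -0.82, limma adjusted p = 0.000426). Dbf4, the activator of the Cdc7 kinase that fires origins, had 6.06, 5.87 and 5.86 FPKM against 9.86, 9.60 and 9.58 (-0.70, adjusted p = 0.000792). Hells, a chromatin remodeller, had 8.95, 9.47 and 8.80 FPKM against 14.8, 17.0 and 15.9 (-0.80, adjusted p = 0.000852). Each of the 3 had groups that did not overlap. Chosen after their values were seen, 4 further origin recognition genes, Orc2, Orc3, Orc4 and Orc5, had log2 fold changes of -0.31, -0.16, -0.24 and -0.24, of which Orc2 was lower (adjusted p = 0.0212). Orc4 (0.0532) and Orc5 (0.0868) were called only with the replicate block (0.02 and 0.0438), and Orc3 with neither. Of the small polymerase ε subunits, Pole3 was at -0.19 on the log2 scale (adjusted p = 0.106, with the block 0.0437) and Pole4 at -0.03, called with neither.

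Of 28 tested regulators of the passage from G1 to S, 13 were lower and 0 higher (16 lower with the replicate block), with a median of -0.31. Of all genes tested, 8.73% were lower, and 17.1% with the block. Ccnd2, a D-type cyclin, was the only one of the 28 to meet both thresholds for differential expression. It had 24.8, 33.3 and 26.6 FPKM in PAKG against 56.4, 66.6 and 61.5 in OC (log2 fold change -1.13 with an SE of 0.12, limma adjusted p = 0.00126). Ccna2, the cyclin of S phase and G2, had 30.2, 28.6 and 31.2 FPKM against 55.3, 53.8 and 53.5 (-0.85, adjusted p = 0.000387). The groups were far apart in both cyclins. Mybl2, a transcription factor of the cell cycle, had 7, 7.18 and 7.21 FPKM against 9.97, 9.90 and 9.71 (-0.46, adjusted p = 0.00351). Chosen after their values were seen, the E2F genes outside the set, E2f3, E2f4, E2f5 and E2f6, had log2 fold changes of -0.01, -0.15, -0.16 and -0.17, and none was called, also with the block. Of the 4 tested genes of CDK inhibitors, Cdkn2c and Cdkn2d were lower (-0.42 and -0.38, adjusted p = 0.0138 and 0.0407), and Cdkn1a and Cdkn1b, at -0.11 each, were not called.

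Genes of G2 and mitosis were lower in 30 of 30 cases, beside 8.73% of all genes tested, with a median of -0.72 and a range from -0.98 to -0.53. Ccnb1, the mitotic cyclin, had 15.9, 17.98 and 16.7 FPKM in PAKG against 32.0, 33.4 and 34.8 in OC (log2 fold change -0.98, limma adjusted p = 0.00037). Plk1, a mitotic kinase, had 29.4, 29.8 and 29.1 FPKM against 49.5, 48.2 and 47.5 (-0.72, adjusted p = 0.00053), and Prc1, which bundles the central spindle, 11.1, 11.7 and 10.8 against 19.4, 20.6 and 19.6 (-0.82, adjusted p = 0.000515). Of 28 genes of recombination and the replication checkpoint, 16 were lower and 0 higher (21 lower with the block), with a median of -0.51. With the block, 17.1% of all genes tested were lower. The checkpoint kinase gene Chek1 had 3.34, 3.23 and 2.93 FPKM in PAKG against 5.42, 5.13 and 5.47 in OC, groups that did not overlap (-0.74, adjusted p = 0.00164). The medians of the 5 lists thus ran from -0.72 in G2 and mitosis over -0.56 in the 52 genes to -0.31 in the regulators of entry into S phase. At an unadjusted p under 0.05, 0 genes of the 4 further lists were higher, beside 1511 of all 12590 genes tested. The differences between lists were not tested.

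**Figure D5:**
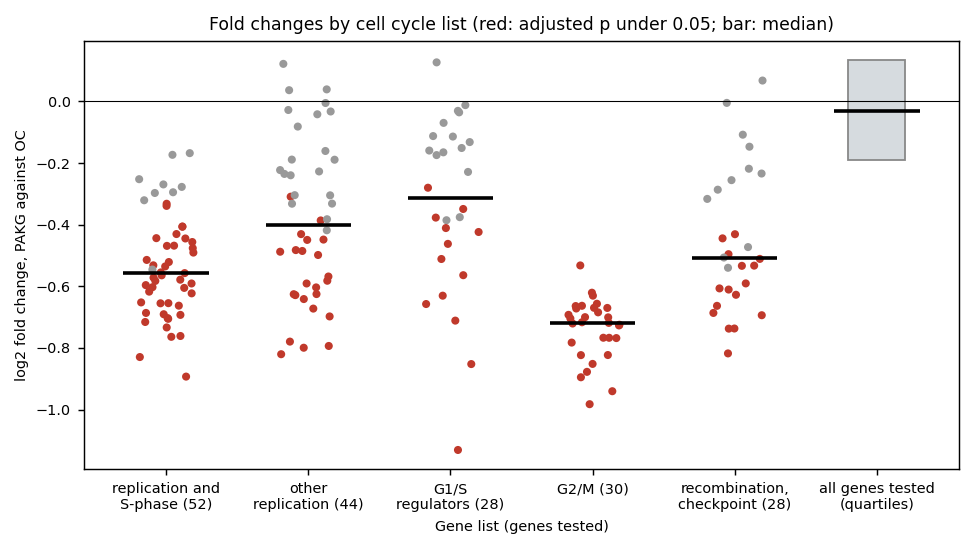
Log2 fold change of PAKG against OC of each gene (points) in 5 cell cycle lists, with black bars at the medians (-0.56, -0.40, -0.31, -0.72 and -0.51 from left to right) and the quartiles of all genes tested as a box. Red points have an adjusted p under 0.05, and all 30 points of the list for G2 and mitosis are red and below 0.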

How the data were processed

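RNA-Seq of poly(A) RNA from 6 libraries was analysed, 3 per group, with groups and replicate numbers taken from the sample labels. The authors deposited FPKM per gene for each library, rounded to 2 decimals, and a service provider made and compared the libraries. Tools listed in the submitters' processing notes are HISAT2, StringTie, cutadapt, FastQC and DESeq2, with the build GRCm38, versions not given in the sources used here. Since the values are no counts, count models were left out. A compositional unit such as FPKM shifts when a few abundant genes change. The median-ratio alternative addresses this in part, whereas rescaling to a common total leaves the values compositional.

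The comparison used limma 3.58.1 in R 4.3.3 (lmFit, eBayes with trend) on log2(FPKM + 0.1), with genes kept where the mean reached 0.5 FPKM (12590 genes), 2-sided, with Benjamini-Hochberg adjustment over all of them (prior degrees of freedom 3.54, residual 4). The main fit was tested on simulated data with known changes, and the other steps were not. The simulated noise was independent between libraries. It lacked the shared deviations of same-numbered libraries and the relation of replicate 2 to length, so it could not test the p-values under these. Depth was estimated from the FPKM that 1 fragment gives in short genes (0.023 to 0.0312 FPKM per kb). The search covered a fixed range of such values, which bounds the estimate. Per library, 42 to 49 of 1154 to 1283 short genes lay near the value chosen, so the depths and the fragments of E2f2 are rough. Python 3.11.15 with pandas 2.3.3, numpy 2.4.6 and matplotlib 3.10.9 served for tables and figures. Gene coordinates are from GENCODE M21 and promoter windows from RefSeq.

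The 52 genes, their roles and the further lists were chosen with earlier results of these data known, and the grouping into complexes was made after the values were seen. Per role, the 3 genes with the smallest adjusted p are given in full, with the 4 genes of the highest mean FPKM and any that are differentially expressed, and per further list the 3 with the smallest adjusted p. The results of 2 genes that meet this rule are not reported here. Further genes are given where they were not called, where their call was lost, or by their fold change.

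Both groups carry replicate numbers 1 to 3. Deviations from the group means correlated at 0.240, 0.430 and 0.192 over the tested genes for libraries with the same number, and at -0.312 to 0.138 for the others. All 3 values are over 0.1, but so is that of PAKG replicate 3 with OC replicate 1 (0.138). These values therefore do not establish that the numbers pair the libraries, and the labels do not say what the number marks. A replicate block was fitted only as an alternative, and calls that rest on it assume such a pairing. The block is given beside each result whose call it changes.

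The alternatives were pseudocounts of 1 and 0.01, no filter, a filter at 1 FPKM, median-ratio scaling, rescaling to a common total, eBayes without the mean-variance trend, the block, treat against a fold of 1.2, both replicates numbered 2 left out, and each library left out.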

Additional observations from a re-analysis of the deposited data

How the results depend on the processing

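The log2 fold change of all 52 genes stayed below 0 in every alternative run (51 genes with a filter at 1 FPKM, which E2f2 does not pass), and 0 members were higher in any of them. The number of members lower was 43 with either other pseudocount, with a filter at 1 FPKM and with median-ratio scaling, 40 after rescaling to a common total, 39 with no mean-variance trend, 37 with no filter, 46 without both replicates numbered 2, 51 with the replicate block and 17 with treat. Leaving out 1 library in turn gave 33 to 42 members lower, 0 to 1 differentially expressed (E2f8, without PAKG replicate 2) and a median log2 fold change of -0.58 to -0.53. That median, -0.56, was -0.51 with a pseudocount of 1 and also after rescaling to a common total. Over all genes, 751 were higher and 1099 lower, against 1554 and 2157 with the replicate block, 222 and 264 with treat, 1204 and 1547 without both replicates numbered 2, and 331 to 987 higher and 500 to 1240 lower without 1 library. Scaling moved the split over all genes, to 874 higher and 764 lower with a common total and 902 and 955 with median-ratio scaling. The calls of 13 genes, Cdc45, Gins3 and Pcna among them, were lost without single libraries, with the values given beside each. Of the 6 fits that left out 1 library, Ccne1 was called in 0, Pole, Fen1 and Dut in 1 each, and E2f1 in 2. FPKM carry no counts, so counting error could not be modelled, and 3 libraries per group limit the precision of each fold change.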
